A study of Mus musculus with 8 samples.

Results

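Gene expression of mouse basal ganglia was compared with that of cortex in the absence of the transcription factor genes Dlx1 and Dlx2. The comparison is between 4 of the 8 arrays of the study, chosen by their titles: 2 of basal ganglia -/- (BG -/-) and 2 of cortex -/- (Ctx -/-). The model was fitted to all 8 arrays, so standard errors and p-values use a spread shared with the other 4. The titles read +/- or -/-, and the series title names Dlx1/2 mutants, so -/- is taken as lacking both copies of Dlx1/2 and +/- as carrying 1 mutant copy. The other 4 arrays, 2 of BG +/- and 2 of Ctx +/-, show the same regional comparison with a copy of Dlx1/2 present. No array without a mutant copy was used. The labels give RNA source, region and genotype. They give no age, strain, allele structure, dissection border or number of animals per array, so p-values measure the spread between the arrays, which may be technical. The array signal is RNA of a whole region, in which fewer cells of a type and less RNA per cell cannot be told apart.

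Dlx1 and Dlx2 are neighbouring homeodomain transcription factors of ventral forebrain progenitors. The basal ganglia arise from the ganglionic eminences, which make GABA-releasing and cholinergic neurons, while the cortex makes its glutamate-releasing neurons from pallial progenitors. Part of the GABA-releasing interneurons of the cortex are born in the ganglionic eminences and migrate into the cortex during development. The medial eminence (MGE) makes many interneurons and pallidal cells, the lateral eminence (LGE) makes striatal projection neurons, and the caudal eminence (CGE) makes further interneurons.

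Each array holds 1 linear signal for every probe set. Pearson correlations across probe sets were 0.976 to 0.982 within the -/- groups and 0.944 to 0.948 between the -/- regions. The median signal was 51.5 and 50.7 in BG -/- and 39.4 and 38.8 in Ctx -/-. The 24 probe sets of spiked poly-A RNA were higher in BG -/- than in Ctx -/- by 0.94 to 1.81 on the log2 scale, whereas 18 hybridisation controls differed by -0.29 to 0.15. The spiked RNA was higher in BG in +/- too. Means in BG +/- and Ctx +/- were 1443 and 630 for probe set DapX-3 and 215 and 121 for LysX-3. The regional comparisons of both genotypes share this shift, and its part in the results was not tested. Regional labels were borne out by defining markers: Emx1, Tbr1, Neurod2 and Neurod6 were higher in Ctx -/-, and Isl1, Lhx8, Six3, Gad1 and Gad2 in BG -/-. Nkx2-1, a regulator of the medial eminence, read 33.8 and 37.6 in BG -/- and 11.3 and 2.93 in Ctx -/- and did not pass the test (1.18 ± 0.46, limma, adjusted p = 0.121). The labels of all 8 arrays name blood and adrenal medulla beside the region. Of the adrenal enzymes, Th read 28.7 and 49.2 in BG -/- and 3.53 and 11.9 in Ctx -/-. Dbh read 96.8 and 57.4 in BG -/- and 56.8 and 31.1 in Ctx -/-, and Pnmt 38.5 and 78.7 in BG -/- and 45.5 and 47.1 in Ctx -/-. Chga, also chosen as an adrenal marker, read 212 and 162 in BG -/- and 242 and 224 in Ctx -/-. None passed the test between regions, which cannot show whether adrenal RNA was present. The embryonic globin gene Hbb-y was clearly present and is given with the other tissue markers.

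Without Dlx1/2, basal ganglia and cortex still differed in 2544 of the 13627 genes tested, which is 18.7%. Of these, 1556 genes (11.4%) were higher and 988 (7.25%) lower in BG -/- than in Ctx -/-. Differences are given as BG minus Ctx on the log2(signal + 16) scale ± the standard error from limma, with 2 arrays a group, and a gene was called at an adjusted p under 0.05 (Benjamini-Hochberg). The offset of 16 understates the differences of low signals. Calls with at least 2-fold numbered 1077, 795 higher and 282 lower. The median difference over all genes was 0.06 and the median standard error 0.16. With only the 4 -/- arrays in the fit 2642 genes were called, 1735 higher and 907 lower. The split by direction depended on the scaling: with each array centred on its median the median of all genes moved to -0.22 and 934 genes were called higher and 2543 lower, so that the higher ones were 26.9% of the calls in place of 61.2%. Quantile normalization kept the direction of the split, with 1240 genes higher, 1012 lower and a median of 0.02. Leaving out any of the 4 -/- arrays left a single array on one side and brought the calls down to 926 and 945 (BG -/- replicates 2 and 3 omitted) and 984 and 1048 (Ctx -/- replicates 2 and 3 omitted).

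The +/- arrays of the 2 regions gave 3375 genes (24.8%), 1912 higher (14.0%) and 1463 lower (10.7%) in BG. This comparison shares no array with that in -/-, but both use the same estimate of the spread of each gene. The 2 sets of calls are therefore not independent. Called in both genotypes with the same sign, here termed persisting, were 1517 genes (11.1% of those tested), 926 higher (6.80%) and 591 lower (4.34%) in BG. They make up 59.6% of the 2544 -/- calls and 44.9% of the +/- calls. With each array centred on its median 1629 of 3477 -/- calls persisted. Their median size was 1.02 in -/- and 0.99 in +/-, and 834 of the 1517 were larger in -/-. Leaving out 1 array brought persisting genes to 731 and 741 (BG -/- replicates 2 and 3), 759 and 806 (Ctx -/- replicates 2 and 3) and 947 and 925 of 2129 -/- calls (BG +/- replicates 2 and 3), and the +/- calls to 1720 and 1653 without BG +/- replicate 2 and 3. A further 1016 genes were called in -/- alone and 1847 in +/- alone, but a call in 1 genotype does not show a difference between genotypes. The difference itself was called for 46 genes (0.338%), of which 17 were persisting, 18 were called in +/- alone, 4 in -/- alone and 7 in both with opposite signs. Unadjusted p was under 0.05 for 2087 genes. The count of 46 fell to 1 or 2 with any 1 of the 8 arrays left out, and to 1 with the replicate number as a block or with an offset of 1. Of the 22 named genes called between genotypes, 1 or 2 kept the call with any 1 array left out or with the block, Ttr among them each time, and none changed sign. The calls between genotypes given below therefore rest on all 8 arrays, apart from that of Ttr. Across genes, which are not independent replicates, the differences in both genotypes correlated at r = 0.722 (Spearman rho = 0.665).

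**Figure D1:**
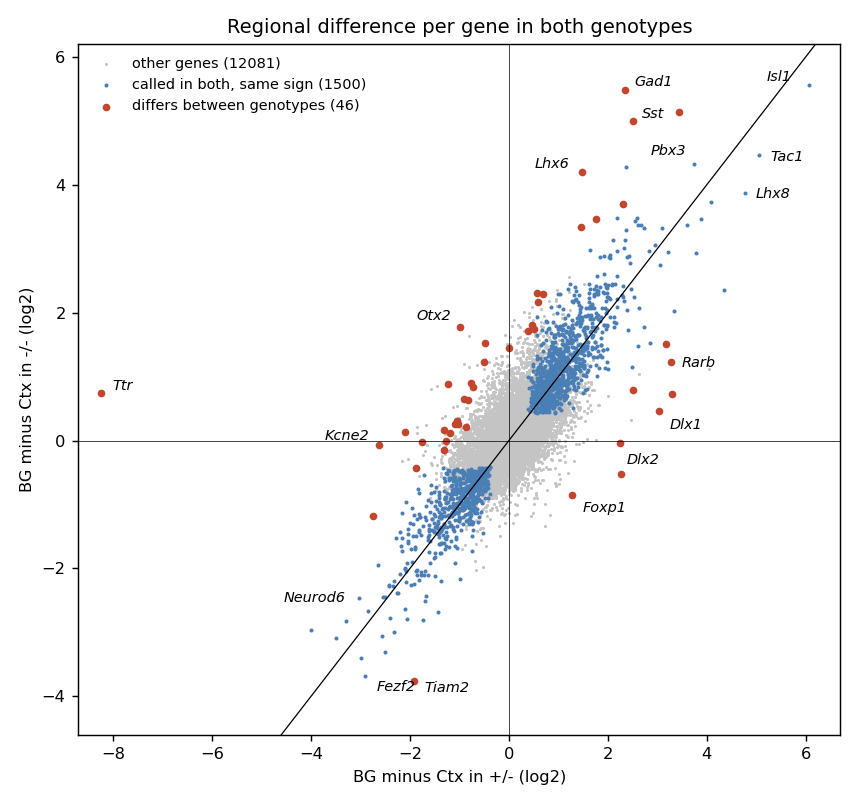
The regional difference of each of the 13627 genes without Dlx1/2 (vertical axis, BG minus Ctx in -/-, log2) is plotted against that with 1 copy (horizontal axis, BG minus Ctx in +/-, log2), with the line of equality. Red points are the 46 genes whose difference between genotypes was called. Blue points are the other genes called in both with the same sign. Isl1, Tac1, Pbx3 and Fezf2 lie near the line, Gad1, Sst and Lhx6 above it, and Dlx1, Dlx2, Rarb and Foxp1 below it.

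Among the genes highest in basal ganglia over cortex without Dlx1/2 were Isl1, Lhx8, Pbx3, Zfhx3 and Tac1. Isl1, a LIM-homeodomain factor of striatal and cholinergic neurons, read 1339 and 1460.1 in BG -/- and 15.8 and 12.3 in Ctx -/-. Both BG -/- arrays were far above both Ctx -/- arrays, whose signals were below the offset of 16. The difference was 5.56 ± 0.16 (limma, adjusted p = 5.56e-05), against 6.07 in +/-. Another Isl1 probe set gave 4.41 in -/-. Lhx8, a LIM-homeodomain factor required for cholinergic neurons of the basal forebrain, read 209.9 and 260.3 in BG -/- and 1.04 and 1.15 in Ctx -/-. Its cortical signal was near 0 on both arrays, and the difference was 3.87 ± 0.15 (limma, adjusted p = 0.000109) against 4.77 in +/-, where BG read 505 and 507.

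Pbx3, a TALE homeodomain factor, read 2054 and 2094 in BG -/- and 88.3 and 89.4 in Ctx -/-. Its arrays were closely alike within each region, and the difference was 4.32 ± 0.12 (limma, adjusted p = 5.56e-05) against 3.75 in +/-. Zfhx3, a large zinc finger and homeodomain protein, differed by 3.73 ± 0.17 against 4.09 in +/-. For Isl1, Lhx8, Pbx3 and Zfhx3 the difference between genotypes was not called (adjusted p = 0.297, 0.11, 0.167 and 0.483, limma).

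Tac1, which encodes the precursor of substance P and marks striatal neurons of the direct pathway, kept a large regional difference too. It read 653 and 387 in BG -/- and 2.92 and 13.4 in Ctx -/-. The BG arrays differed between themselves more than for the genes above, yet both were far over both cortical arrays. The difference was 4.46 ± 0.29 (limma, adjusted p = 0.000389, 95% interval 3.78 to 5.14) against 5.06 in +/-. Another, dimmer Tac1 probe set differed by 0.50 and was not called (adjusted p = 0.113).

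Promoters are shown for Tac1 and Sst, neuropeptide genes that persisted, and for Rarb, whose regional difference was smaller in -/-. Each is the stretch of 250 bases before the gene's start from RefSeq (GRCm38.p6), written 5′ to 3′ on the gene's strand, with a motif found by an exact search of both strands in capitals. The Tac1 stretch lies on the plus strand at chr6:7554811-7555060, and the capitals mark TAATTA, the core that many homeodomain proteins bind, 100 to 95 bases before the start. The Sst stretch lies on the minus strand at chr16:23890845-23891094, and the capitals mark TGACGTCA, the cAMP response element, 48 to 41 bases before the start. The Rarb stretch lies on the minus strand at chr14:16575477-16575726, and the capitals mark a retinoic acid response element, searched as GGTTCA and AGTTCA separated by any 5 bases (the 5 are in capitals too), 53 to 37 bases before the start.
Tac1 promoter: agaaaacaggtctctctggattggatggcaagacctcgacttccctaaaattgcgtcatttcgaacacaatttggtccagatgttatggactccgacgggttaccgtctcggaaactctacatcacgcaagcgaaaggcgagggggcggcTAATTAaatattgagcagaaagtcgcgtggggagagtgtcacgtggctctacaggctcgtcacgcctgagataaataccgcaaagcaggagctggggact
Sst promoter: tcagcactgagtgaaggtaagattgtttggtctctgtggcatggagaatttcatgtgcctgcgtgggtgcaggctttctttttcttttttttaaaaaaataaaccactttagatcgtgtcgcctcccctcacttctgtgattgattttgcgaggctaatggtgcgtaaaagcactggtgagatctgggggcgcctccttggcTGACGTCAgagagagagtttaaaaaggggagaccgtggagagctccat
Rarb promoter: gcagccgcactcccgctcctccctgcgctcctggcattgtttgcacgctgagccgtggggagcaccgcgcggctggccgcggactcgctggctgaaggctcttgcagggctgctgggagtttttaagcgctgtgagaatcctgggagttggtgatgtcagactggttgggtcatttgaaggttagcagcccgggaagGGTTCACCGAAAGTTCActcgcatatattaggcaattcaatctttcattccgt
Of 32851 promoters of this length, 1590 (4.84%) hold TAATTA, 508 (1.55%) hold TGACGTCA and 2 hold this retinoic acid response element. These are matches of letters, and no binding was measured.

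Of the genes of interneurons from the medial eminence, 4 were higher in BG in both genotypes and by more in -/-: Sst, Lhx6, Npy and Nxph1. Sst, the neuropeptide somatostatin, read 2899.7 and 2807 in BG -/- and 69.4 and 79.4 in Ctx -/-, and 1907 and 1695 in BG +/- and 299.5 and 306 in Ctx +/-. In -/- its BG arrays were the highest of the 8 and its Ctx arrays the lowest. The difference was 4.99 ± 0.13 in -/- (limma, adjusted p = 5.56e-05) and 2.51 in +/-, and the difference between genotypes was 2.48 ± 0.18 (adjusted p = 0.0161). Lhx6, the LIM-homeodomain factor of MGE interneurons, read 429 and 427 in BG -/- and 7.19 and 8.95 in Ctx -/-, and 551 and 521 in BG +/- and 164 and 204 in Ctx +/-. Its cortical signal was below 16 on both -/- arrays, whereas no +/- array was that low. It differed by 4.21 ± 0.14 in -/- and by 1.47 in +/-, with 2.74 ± 0.20 between genotypes (limma, adjusted p = 0.0161).

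Npy, neuropeptide Y, read 1480.0 and 1413 in BG -/- and 123 and 110.1 in Ctx -/-, and 681 and 647 in BG +/- and 197 and 175 in Ctx +/-. The BG -/- arrays were above the BG +/- arrays and the Ctx -/- arrays below the Ctx +/- arrays. Its regional difference was 3.47 ± 0.13 in -/- and 1.75 in +/- (between genotypes 1.71 ± 0.18, limma, adjusted p = 0.0275). Nxph1, a secreted ligand of neurexins, read 277 and 270.0 in BG -/- and 12.2 and 13.3 in Ctx -/- and differed by 3.33 ± 0.19, against 1.45 in +/- (between genotypes 1.88 ± 0.28, limma, adjusted p = 0.0499). Of its other probe sets, 1 gave 3.49 in -/- and 2.18 between genotypes, while the other gave 1.14 and -0.52, the latter not called. The other Lhx6 probe set gave 2.07 in -/- and 0.91 between genotypes, not called (adjusted p = 0.128).

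Of the 12 members tested of the MGE interneuron list, 8 were higher and 2 lower in BG -/-, with a median of 1.64, against 11.4% higher and 7.25% lower and a median of 0.06 over all genes. In +/- the counts were 6 and 2, with a median of 0.97, and 7 members persisted. Over all genes the +/- shares were 14.0% higher and 10.7% lower. The list counts below are to be read beside these shares of all genes. The other higher members were Ackr3 (2.43), an atypical chemokine receptor, Elfn1 (1.88), a synaptic adhesion protein, Maf (1.41) and Sox6 (0.85), both transcription factors of these cells. Lower were Zeb2 (-1.34), a zinc finger factor also found in cortical neurons, and Cxcr4 (-1.34), a chemokine receptor of migrating neurons, for which +/- gave -1.74 and -0.20, the latter not called. Counts without any 1 of the -/- arrays were 7 higher and 2 lower.

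All 5 members tested of the GABA list were higher in BG in both genotypes, with medians of 1.93 in -/- and 2.30 in +/-. Gad1, the main enzyme of GABA synthesis, read 1427 and 1298 in BG -/- and 10.1 and 20.3 in Ctx -/-, and 1907 and 1719.8 in BG +/- and 349.9 and 338 in Ctx +/-. Its cortical signal in -/- was far below that in +/-, while the BG arrays of both genotypes were the highest of the 8. The regional difference was 5.48 ± 0.18 in -/- (limma, adjusted p = 7.66e-05) and 2.34 in +/-, with 3.14 ± 0.25 between genotypes (adjusted p = 0.0211). Another Gad1 probe set gave 2.93 in -/- and 1.09 between genotypes, the latter not called (adjusted p = 0.127).

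Gad2, the other enzyme of this step, read 350.2 and 377 in BG -/- and 14.3 and 12.3 in Ctx -/-, and 502 and 431 in BG +/- and 75.5 and 89.1 in Ctx +/-. Here too the Ctx -/- arrays were the lowest of the 8. It differed by 3.70 ± 0.14 in -/- and 2.30 in +/- (1.40 ± 0.20 between genotypes, limma, adjusted p = 0.0471), and another probe set gave 0.36 between genotypes, not called. Slc32a1, the vesicular GABA transporter, read 24.2 and 42.9 in BG -/- and 1.35 and 0.364 in Ctx -/-, and 474 and 403 in BG +/- and 46.4 and 46.5 in Ctx +/-. Unlike both Gad genes it was low in BG -/- as well. It was higher in BG by 1.53 ± 0.20 in -/- and 2.86 in +/-, and the difference between genotypes was not called (-1.33 ± 0.28, limma, adjusted p = 0.0895). Abat, which breaks GABA down, and Slc6a11, a GABA uptake transporter, were higher by 1.93 and 1.55 in -/- and by 2.05 and 1.28 in +/-.

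**Figure D2:**
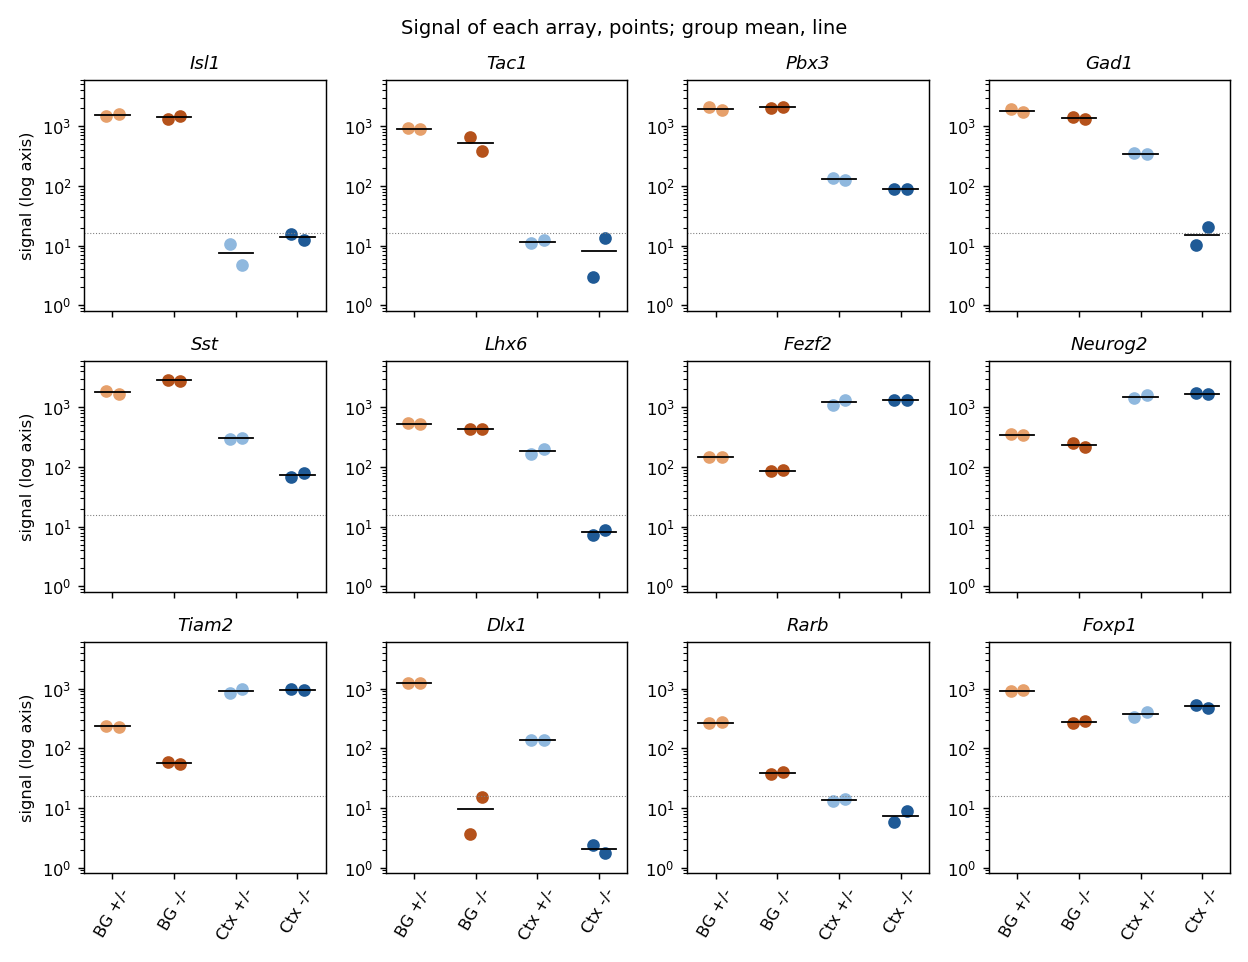
The signal of each array (points, log axis) and the group mean (line) are plotted for 12 genes in BG +/-, BG -/-, Ctx +/- and Ctx -/-, with a dotted line at the offset of 16. Gad1 and Lhx6 are low in Ctx -/- alone, Rarb and Tiam2 are lower in BG -/- than in BG +/-, and Isl1, Pbx3, Fezf2 and Neurog2 keep their order of regions in both genotypes.

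Of the DLX genes, 4 had a called difference between genotypes (Dlx1, Dlx2, Dlx1as and Dlx6os1), and none of these was called between the regions in -/-. Dlx1 read 3.67 and 15.5 in BG -/- and 2.42 and 1.74 in Ctx -/-, and 1232 and 1237 in BG +/- and 138 and 137 in Ctx +/-. All 4 -/- arrays were below the offset of 16. Its regional difference was 0.46 ± 0.21 in -/- and not called (limma, adjusted p = 0.179), against 3.03 in +/-, with -2.56 ± 0.30 between genotypes (adjusted p = 0.0359). Without BG -/- replicate 2 it was called in -/- (adjusted p = 0.0408). Dlx2 read 8.56 and 8.68 in BG -/- and 12.01 and 6.69 in Ctx -/-, with regions overlapping, and differed by -0.03 ± 0.16 in -/- against 2.24 in +/- (-2.28 ± 0.22 between genotypes, limma, adjusted p = 0.0267). Where the probes lie relative to the mutated parts is not given.

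Of the linked pair Dlx5 and Dlx6, which are transcribed in the same progenitors and their progeny, Dlx5 read 65.6 and 71.1 in BG -/- and 1.82 and 17.7 in Ctx -/-, and 719 and 706 in BG +/- and 93.9 and 92.3 in Ctx +/-. The BG -/- arrays lay above the Ctx -/- arrays and below both +/- groups. It was the single DLX gene called in -/- (1.78 ± 0.27, limma, adjusted p = 0.00799), a call lost without BG -/- replicate 3 (adjusted p = 0.0503) and with an offset of 1 (0.0549). Dlx6 read 20.6 and 19.8 in BG -/- and 2.03 and 1.29 in Ctx -/- and was not called (1.03 ± 0.35, adjusted p = 0.0848). The antisense transcripts Dlx1as and Dlx6os1 gave -0.53 and 0.73 in -/-, neither called, against 2.27 and 3.29 in +/-, and both differed between genotypes by -2.80 and -2.56. In all, 1 of 7 members tested of the DLX list was higher in BG -/- and 6 of 7 in BG +/-.

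Transcription factors of ventral progenitors were higher in BG -/- for 7 of the 8 list members tested, with a median of 2.42, against 5 higher and 1 lower in +/- with a median of 1.80. Gsx2, a homeodomain factor of lateral eminence progenitors, read 214 and 216 in BG -/- and 7.30 and 6.88 in Ctx -/-. Its BG arrays were closely alike and far above both cortical arrays, and it differed by 3.32 ± 0.22 (limma, adjusted p = 0.000452) against 2.73 in +/-. Six3, a homeodomain factor, read 148 and 145 in BG -/- and 20.5 and 27.6 in Ctx -/-, and 351 and 369 in BG +/-, with a difference of 2.02 in -/- and 3.33 in +/- (between genotypes -1.31, limma, adjusted p = 0.0726, not called). Gsx1 and Vax1, also homeodomain factors, gave 2.55 and 2.28. Otx2, which is on the choroid plexus list too, is 1 of the 7 higher in -/- (1.78) and the 1 lower in +/- (-0.995). Without BG -/- replicate 2 the count was 6 and without any of the other -/- arrays 7.

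Olig1 and Olig2, basic helix-loop-helix factors that act in ventral progenitors and oligodendrocytes, were higher in BG -/- as well. Olig1 read 691 and 629.9 in BG -/- and 81.1 and 71.8 in Ctx -/- and differed by 2.87 ± 0.13 (limma, adjusted p = 0.000154), against 2.39 in +/-. Olig2 read 326 and 266 in BG -/- and 32.7 and 16.6 in Ctx -/- and differed by 2.96 ± 0.38. The oligodendrocyte list, which holds both, had 7 of 9 members tested higher and none lower in each genotype, and all 7 persisted. Beside both Olig genes these were Pdgfra (2.01), the growth factor receptor of precursors, Gpr17 (1.93), a receptor of differentiating cells, Sox8 (1.14), Cnp (0.997) and Mbp (0.86), a myelin protein. Its count was 4 to 6 with 1 -/- array left out, lowest without BG -/- replicate 2.

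Otx2, a homeodomain factor of the choroid plexus and dorsal midline as well as of ventral cells, reversed its regional order. It read 95.4 and 71.2 in BG -/- and 13.6 and 11.95 in Ctx -/-, and 13.3 and 34.9 in BG +/- and 66.9 and 55.6 in Ctx +/-. The BG -/- arrays were the highest of the 8, and the Ctx -/- arrays were low, as was 1 BG +/- array. The difference was 1.78 ± 0.27 in -/- and -0.995 in +/-, both called, with 2.77 ± 0.38 between genotypes (limma, adjusted p = 0.046). Without BG -/- replicate 2 the -/- difference was not called (adjusted p = 0.051). The choroid plexus gene Ttr, transthyretin, read 11634 and 13605 in Ctx +/-, 18.6 and 34.3 in BG +/-, 9.52 and 15.2 in BG -/- and 1.11 and 0.701 in Ctx -/-. Only the Ctx +/- arrays held it at a high level. Its regional difference was 0.74 ± 0.21 in -/-, not called (limma, adjusted p = 0.0544), against -8.24 in +/-, the largest difference between genotypes of all genes at 8.98 ± 0.29 (adjusted p = 0.000269). Kcne2, a potassium channel subunit of the choroid plexus, gave -0.07 in -/- and -2.63 in +/-.

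The summed signal of the 7 choroid plexus genes tested was 265.0 and 265.8 in BG -/-, 56.2 and 115.5 in Ctx -/-, but 12212 to 14044 in Ctx +/-. Nearly all of the latter is Ttr itself. Of the 7 members, Ttr, Kcne2, Otx2 and Aqp1 were lower in BG +/-, and Otx2 and Sostdc1 were higher in BG -/-. The part of choroid plexus tissue in these differences was not tested. Sostdc1, a secreted inhibitor on the same list, read 43.8 and 61.2 in BG -/- and 14.7 and 11.4 in Ctx -/- and was higher by 1.23 ± 0.26, a call lost without any 1 of the 4 -/- arrays (adjusted p = 0.061 to 0.112, limma).

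Genes of the cholinergic and pallidal lineage were higher in BG -/- for 6 of 7 members tested and lower for 1, with a median of 1.63, and 5 persisted. Beside Isl1 and Lhx8, Gbx2, a homeodomain factor, read 66.9 and 49.8 in BG -/- and 0.652 and 7.21 in Ctx -/- and differed by 1.91 ± 0.24, against 1.38 in +/-. Zic1, a zinc finger factor of the septum and basal forebrain, read 1511 and 1586 in BG -/- and 760.3 and 730.1 in Ctx -/-, above the 819 and 807 in BG +/-, and differed by 1.04 ± 0.13 (limma, adjusted p = 0.00339). Gbx1 and Zic4 gave 1.63 and 1.15. The lower member was Ngfr, a neurotrophin receptor (-0.74, adjusted p = 0.0495). Between 4 and 5 members were higher and none lower with 1 -/- array left out, 4 without BG -/- replicate 2 or either Ctx -/- array. The enzyme Chat and the transporters Slc18a3 and Slc5a7, which define a working cholinergic neuron, were below the filter on low signals.

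Striatal projection neuron genes were divided. Of 26 members tested, 8 were higher and 5 lower in BG -/-, with a median of 0.63, against 14 higher and 2 lower in +/- with a median of 0.90. Called in both genotypes with the same sign were 10 members, 8 of them higher. Ebf1, a factor of direct-pathway neurons, read 251 and 240.2 in BG -/- and 19.1 and 17.6 in Ctx -/-, and 620.3 and 576 in BG +/-. Both BG -/- arrays were far above the cortical ones and below those of BG +/-. It differed by 2.93 ± 0.12 in -/- (limma, adjusted p = 0.000109) and 3.78 in +/- (between genotypes -0.85, adjusted p = 0.0782, not called). Penk, the enkephalin precursor of indirect-pathway neurons, read 88.6 and 75.9 in BG -/- and 21.9 and 16.7 in Ctx -/-, and 185 and 168 in BG +/-. It differed by 1.48 ± 0.14 in -/- and 2.62 in +/- (between genotypes adjusted p = 0.0631).

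Meis1, a TALE homeodomain factor, gave 1.78 in -/- and 1.76 in +/-. Zfp503, a zinc finger factor of the striatum, gave 2.35 and 4.34, and Foxp2, a forkhead factor, 1.16 and 1.52. Ptpn5, a striatal phosphatase, gave 1.09 and 0.59. Together with Tac1 and Rarb these are the 8 higher members, and all 8 were called in both genotypes.

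Rarb, a retinoic acid receptor of striatal neurons whose promoter is shown above, kept a part of its regional difference. It read 37.3 and 39.5 in BG -/- and 5.82 and 8.73 in Ctx -/-, and 269.7 and 271 in BG +/- and 13.2 and 14.1 in Ctx +/-. The BG -/- arrays were above the cortical arrays of both genotypes and far below the BG +/- arrays. The difference was 1.23 ± 0.12 in -/- (limma, adjusted p = 0.00157) and 3.27 in +/-, smaller in -/- by -2.04 ± 0.17 as signed (adjusted p = 0.023). Crabp1, a retinoic acid binding protein, read 133 and 123 in BG -/- and 68.9 and 66.2 in Ctx -/-, and 426 and 462 in BG +/-, with 0.79 in -/- and 2.52 in +/- (-1.73 ± 0.19 between genotypes, limma, adjusted p = 0.0334). Its -/- call was lost without any 1 of the -/- arrays (adjusted p = 0.0573 to 0.0776). Of 12 retinoic acid pathway members tested, Rarb and Crabp1 were the 2 higher in -/-, against 4 in +/-, where Rxrg (4.03) and Cyp26b1 (1.29) were called too. Rxrg gave 1.13 in -/-, not called (adjusted p = 0.113). The pathway count in -/- was 1 without either Ctx -/- array and 3 higher and 1 lower without BG -/- replicate 2. With median centring 2 were higher and 1 lower. Of all genes 11.4% were higher in -/-, so the retinoic acid count in -/- is not far from the share of all genes.

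Foxp1, a forkhead factor of striatal projection neurons and of deep and middle cortical layers, reversed its regional order. It read 261 and 285 in BG -/- and 537 and 479 in Ctx -/-, and 912 and 932 in BG +/- and 339 and 410.2 in Ctx +/-. In -/- both cortical arrays were above both BG arrays, and in +/- the order was the opposite, with no overlap in either genotype. Lack of overlap is common with 2 arrays a group: in -/- the regions lay apart for 71.1% of all genes. The difference was -0.86 ± 0.14 in -/- (limma, adjusted p = 0.01) and 1.27 in +/-, -2.13 ± 0.20 between genotypes (adjusted p = 0.0253). Its other 7 probe sets gave -1.57 to -0.24 in -/-, 3 of them called. The -/- call was lost when BG -/- replicate 2 (adjusted p = 0.068) or Ctx -/- replicate 2 was omitted (0.0663).

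The other members lower in BG -/- were Drd1, the D1 dopamine receptor (-1.15 in -/-, 0.16 and not called in +/-), Ppp1r1b, the phosphoprotein DARPP-32 (-1.31, adjusted p = 0.045), Cnr1, the cannabinoid receptor (-1.04, and -0.92 in +/-), and Arpp21. Arpp21, a cyclic AMP regulated phosphoprotein also found in cortex, read 342 and 328 in BG -/- and 832 and 729 in Ctx -/-, and 81.6 and 71.9 in BG +/- and 543 and 674 in Ctx +/-. It was lower in BG in both genotypes, by -1.18 in -/- and -2.75 in +/-, with 1.57 ± 0.21 between genotypes (limma, adjusted p = 0.0462). Of its other 4 probe sets 3 had the same sign between genotypes and 1 the opposite, and none was called. Of the lower members, 2 were called without Ctx -/- replicate 2 and 4 without any of the other 3 -/- arrays.

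Interneuron genes of the lateral and caudal eminences were higher in BG -/- for 5 of 10 members tested, with a median of 0.74, and none was lower. Prox1, a homeodomain factor, read 117 and 109 in BG -/- and 31.4 and 36.4 in Ctx -/- and differed by 1.37 ± 0.15. Tshz1 and Nr2f2, a zinc finger factor and an orphan nuclear receptor, gave 1.30 and 0.93, and Nr2f1, its relative, 0.56. Sp8, a zinc finger factor of this lineage, was called in +/- (1.40) and not in -/- (0.35, limma, adjusted p = 0.1). Counts were 3 or 4 with 1 -/- array left out, 3 when replicate 2 of either -/- region was omitted, which also lost Nr2f2.

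Of 15 pallial progenitor genes tested, 12 were lower in BG -/- and none higher, with a median of -1.35, against 13 lower in +/- with a median of -1.31. All 12 persisted. Neurog2, a proneural basic helix-loop-helix factor of cortical progenitors, read 248 and 216 in BG -/- and 1711 and 1676 in Ctx -/-. Its cortical arrays were alike and far above the BG arrays, and the difference was -2.79 ± 0.13 (limma, adjusted p = 0.000162) against -2.06 in +/-. Neurog1, its relative, read 3.53 and 5.44 in BG -/- and 101 and 100.4 in Ctx -/- and differed by -2.51 ± 0.17 against -1.69 in +/-. Eomes, the T-box factor of intermediate progenitors, read 135 and 159 in BG -/- and 980.2 and 1217 in Ctx -/-, with a difference of -2.77 ± 0.17.

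Dmrta2, a factor of the cortical midline, gave -2.18. Emx1 and Emx2, homeodomain factors of the dorsal telencephalon, gave -1.75 and -1.25, and Lhx2, which specifies cortex, -1.39. Pax6, a paired homeodomain factor of radial glia, read 214 and 153 in BG -/- and 515 and 459 in Ctx -/- and gave -1.35 in -/- and -1.26 in +/-. Lhx9, Nr2e1 and Sfrp1 were not called in -/- (0.01, -0.05 and -0.10). The count of lower members was 11 or 12 with any -/- array left out.

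Cortical glutamatergic neuron genes were lower in BG -/- for 16 of 25 members tested and higher for 1, with a median of -1.24, against 19 and 1 and a median of -1.33 in +/-. Fezf2, a zinc finger factor that specifies deep-layer projection neurons, read 85.5 and 88.7 in BG -/- and 1306 and 1308 in Ctx -/-. Both cortical arrays were alike and far above both BG arrays, a difference of -3.68 ± 0.13 (limma, adjusted p = 8.45e-05) against -2.90 in +/-. Neurod6, a basic helix-loop-helix factor of postmitotic cortical neurons, read 775 and 844 in BG -/- and 4490.0 and 4566 in Ctx -/- and differed by -2.46 ± 0.15 against -3.03 in +/-. The nuclear factor I gene Nfix read 1192 and 1155 in BG -/- and 5865 and 5529 in Ctx -/- and differed by -2.26 ± 0.12, and Nfib and Nfia by -2.01 and -1.24.

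Sox5, a factor of deep-layer neurons, gave -2.25, and Crym, a thyroid hormone binding protein, -2.68, against -1.43 in +/-. Tbr1, the T-box factor of layer 6 and early-born neurons, read 218 and 269 in BG -/- and 515 and 485 in Ctx -/- and was lower, with a 95% interval of the difference of -1.52 to -0.48 (limma, adjusted p = 0.0259). The higher member was Lmo4, a LIM-only protein found in both regions (0.72 in -/-, 1.08 in +/-). Bcl11a was called lower in -/- (-0.87) and not in +/- (-0.26), and the glutamate transporter genes Slc17a6 and Slc17a7 were called in +/- and not in -/- (-0.33 and -0.65). Counts of lower members were 14 with any 1 -/- array left out, and Lmo4 was called higher without Ctx -/- replicate 2 but not without any of the other 3. With median centring 20 members were lower and none higher.

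Of the genes lowest in BG -/- outside the gene lists, Tiam2, an activator of the Rac GTPase, stood first. It read 58.1 and 53.6 in BG -/- and 967 and 949.7 in Ctx -/-, and 233 and 231 in BG +/- and 856 and 1001 in Ctx +/-. Cortical arrays of both genotypes overlapped, whereas the BG -/- arrays were far below the BG +/- arrays. It differed by -3.76 ± 0.13 in -/- (limma, adjusted p = 7.77e-05) and -1.92 in +/-, -1.84 ± 0.18 between genotypes (adjusted p = 0.0267), while its other 2 probe sets gave -0.31 and -0.47 between genotypes, not called. Cntn2, an axonal adhesion molecule, read 96.6 and 136 in BG -/- and 1122 and 1081 in Ctx -/- and gave -3.09. Mfap4, a matrix protein, and Dct, an enzyme of melanin synthesis also found in the telencephalon, had BG -/- signals of 2.88 and 2.44 and of 26.0 and 9.85, and gave -3.40 and -2.83.

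Nr4a3, an orphan nuclear receptor, gave -3.31, Sla, a Src-like adaptor protein, -2.96, Dusp14, a phosphatase, -2.63, and Tmem74 -2.45. On the opposite side, Thsd7a, a thrombospondin-domain protein, gave 4.28, Otp, a homeodomain factor of the hypothalamus, 3.48, Zcchc12, a zinc finger coactivator, 3.47, Resp18, a secretory granule protein, 3.46, and Pcdh11x, a protocadherin, 3.43. The 15 largest differences in each direction were all persisting, with adjusted p of 5.56e-05 to 0.000943 (limma). The difference between genotypes was called for 5 of the higher and 1 of the lower genes. Further probe sets of these genes, 13 for the higher and 11 for the lower, had the same sign throughout, and 10 and 11 of them were called.

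**Figure D3:**
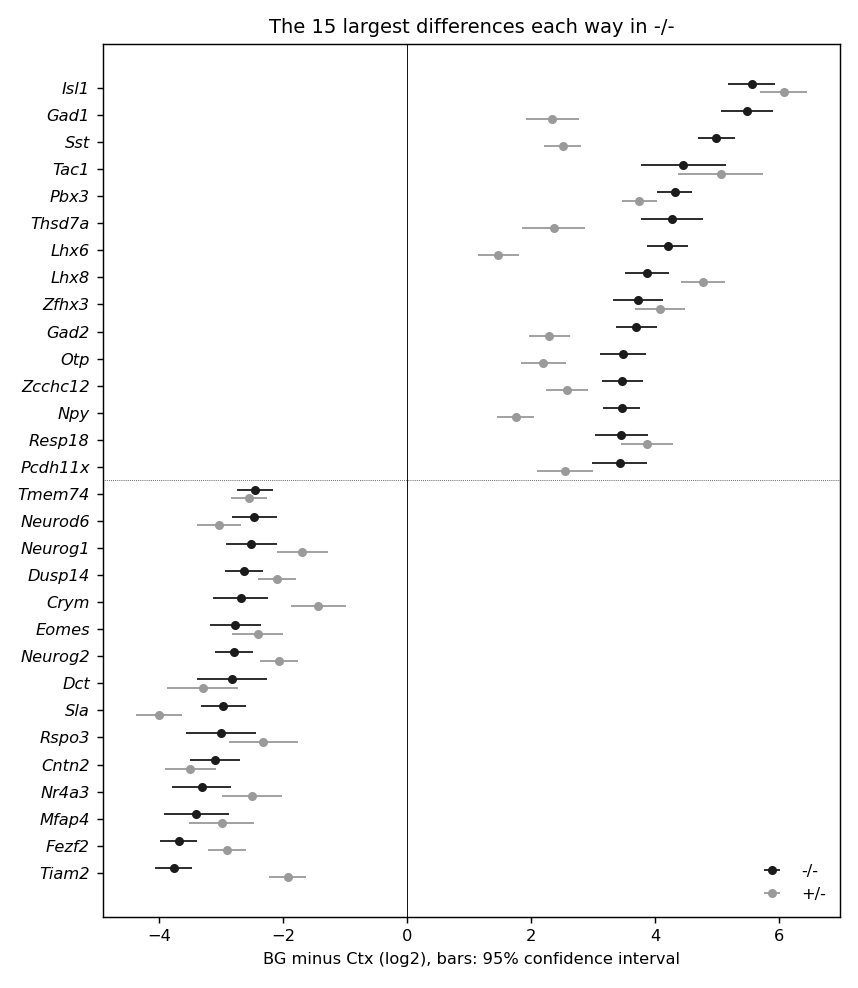
BG minus Ctx on the log2 scale (horizontal axis) is plotted for the 15 genes with the largest difference in each direction in -/-, in black for -/- and in grey for +/-, with 95% confidence intervals from limma as bars. All 30 genes keep their direction in +/-. Among the genes whose intervals lie apart between genotypes are Gad1, Gad2, Sst, Lhx6, Npy, Tiam2 and Lhx8. For Lhx8 the difference between genotypes was not called.

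Dorsal midline genes were lower in BG -/- for 5 of 14 members tested and higher for 1. Rspo3 and Rspo2, secreted enhancers of Wnt signalling, read 39.1 and 42.8 in BG -/- and 449 and 426 in Ctx -/- and 19.5 and 12.9 in BG -/- and 114 and 131 in Ctx -/-, with differences of -2.99 ± 0.24 and -2.11 ± 0.15. Reln, the secreted protein of Cajal-Retzius cells, read 1376 and 1403 in BG -/- and 2909 and 2916 in Ctx -/- and differed by -1.06 ± 0.16 (limma, adjusted p = 0.00803), a call lost without BG -/- replicate 2 (adjusted p = 0.0526). Ebf3, a relative of Ebf1 on the same list, went the other way and read 286 and 365 in BG -/- and 107 and 96.8 in Ctx -/-, and 58.9 and 54.2 in BG +/- and 91.2 and 79.7 in Ctx +/-. The BG -/- arrays were far above all the others. It was higher by 1.52 ± 0.15 in -/- (limma, adjusted p = 0.00182) and not called in +/- (-0.48), with 2.01 ± 0.22 between genotypes (adjusted p = 0.0318). Both other Ebf3 probe sets were higher in -/- too, and their difference between genotypes was not called. Of the list's members, 3 were lower without BG -/- replicate 3 or either Ctx -/- array.

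In the hedgehog pathway, the ligand Shh read 152 and 184 in BG -/- and 41.8 and 27.6 in Ctx -/- and was higher in BG by 1.87 ± 0.17 (limma, adjusted p = 0.0013), and the receptor and target Ptch1 by 1.10 ± 0.17, a call lost when BG -/- replicate 3 or Ctx -/- replicate 2 was omitted (adjusted p = 0.0551 and 0.0585). The coreceptors Cdon, at 154 and 238 in BG -/- and 1072 and 1151 in Ctx -/-, and Gas1 were lower by -2.44 and -1.42, as were Gli2 (-0.67) and Smo (-0.66), the signal transducers. The +/- differences of Shh, Ptch1, Cdon and Gas1 were 1.84, 1.27, -2.51 and -1.82. Of 9 tested, 2 were higher and 4 lower in each genotype, and 5 persisted. Lower members numbered 2 without either BG -/- array or without Ctx -/- replicate 3, and 1 was higher without BG -/- replicate 3 or Ctx -/- replicate 2.

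In the Wnt pathway, the ligand Wnt7b (-1.40 ± 0.11) and the receptors Fzd1 (-1.29 ± 0.14) and Fzd7 (-0.65 ± 0.14) were lower and the receptor Fzd5 higher (1.65 ± 0.18), 4 of 17 members tested. Of all genes 18.7% were called, so the Wnt count is near the share of all genes. With median centring 1 Wnt member was higher and 7 were lower. Fzd7 lost its call with any 1 -/- array left out (adjusted p = 0.0937 to 0.116, limma). In the Notch pathway, 5 of 19 were higher: Dner (1.94 ± 0.13), a neuronal ligand, Jag1 (1.52 ± 0.18) and Dll3 (1.23 ± 0.15), a ligand and an inhibitor of signalling, Hes6 (0.59) and Notch3 (0.64). Notch2 was lower (-0.55). The Notch median was 0.27. It turned to -0.02 with arrays centred on their medians, which left 3 members higher and 3 lower. With 1 -/- array left out 3 or 4 were higher and none lower, 3 without BG -/- replicate 3 or either Ctx -/- array.

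Adhesion and guidance genes differed in both directions. Ntn1, the guidance cue netrin-1, read 161 and 160.4 in BG -/- and 16.9 and 27.4 in Ctx -/- and was higher by 2.23 ± 0.22, while its receptor Dcc was lower by -0.79. Nrp1 and Plxna2, receptors of semaphorins, were lower by -1.36 and -0.95, and Sema3c by -1.04. Cxcl12, the chemokine that guides migrating interneurons and is made in meninges and cortical progenitors, read 44.2 and 57.1 in BG -/- and 189 and 184 in Ctx -/- and was lower by -1.61 ± 0.14, though another probe set gave 0.14 and was not called. Of 23 tested, 4 were higher and 8 lower, 1 or 2 and 4 or 5 with any 1 -/- array left out, and 2 and 9 with median centring. Efnb3 (1.46) and Efna5 (1.25), ligands of Eph receptors, were higher, and Efna4 (-1.38), Efnb2 (-1.05), Epha5 (-0.82) and Epha3 (-0.81) lower, of 16 tested.

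The protocadherins Pcdh10 (2.07 ± 0.16), Pcdh19 (1.45 ± 0.13) and Pcdh17 (1.37 ± 0.12) were higher, as were the cadherins Cdh7 (0.99 ± 0.14) and Cdh20 (0.91). Cdh10, Cdh13 and Pcdh9 were lower (-0.59, -0.67 and -0.44), and these 3 calls were absent with any 1 -/- array left out. The cadherin median of 0.20 turned to -0.08 with median centring, with 5 members higher and 5 lower in place of 5 and 3 of 15 tested, and the Eph median of -0.01 to 0.06 with quantile normalization.

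Aldh1l1, a folate enzyme of radial glia and astrocytes, read 301 and 328 in BG -/- and 27.6 and 30.5 in Ctx -/- and differed by 2.88 ± 0.12, Ednrb, the endothelin receptor, by 1.86 ± 0.12, and Sox2, a factor of neural stem cells, by 1.46 ± 0.15. Of 17 radial glia genes tested, 5 were higher and 2 (Hopx, -1.22, and Pax6) lower, with a median of 0.21. With median centring 3 were higher and 6 lower, with a median of -0.07. Higher members numbered 3 without BG -/- replicate 2 or Ctx -/- replicate 2, and 1 was lower with any 1 -/- array left out. Of 28 cell cycle genes, 2 were higher (Cdkn1a, 1.16, and Ccnd1, 0.67) and 6 lower, among them the kinase inhibitor Cdkn1c (-1.14) and the kinase Cdk4 (-0.54). The shares of all genes were 11.4% higher and 7.25% lower. With 1 -/- array left out 0 or 1 were higher and 1 lower, and the calls of Ccnd1 and Cdk4 were lost each time. Lower members numbered 8 with median centring and 1 without a filter or with the replicate block. In +/- 7 members were higher and 6 lower, with a median of 0.14 against -0.18 in -/-.

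Neuron maturation genes were higher for 6 of 21 members tested and lower for 1. Nefl, the light neurofilament chain, read 651 and 686 in BG -/- and 133 and 125 in Ctx -/- and differed by 2.24 ± 0.12 (limma, adjusted p = 0.00023), and Syt1, a vesicle protein, and Gap43, a growth cone protein, by 0.97 and 0.87. The lower member was Snap25 (-0.64). Pan-neuronal genes Dcx, Tubb3 and Map2 were not called (-0.18, -0.15 and 0.07). Higher members numbered 3 or 4 and lower members 0 with any 1 -/- array left out, 3 without Ctx -/- replicate 2, and 4 were higher and 2 lower with median centring.

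**Figure D4:**
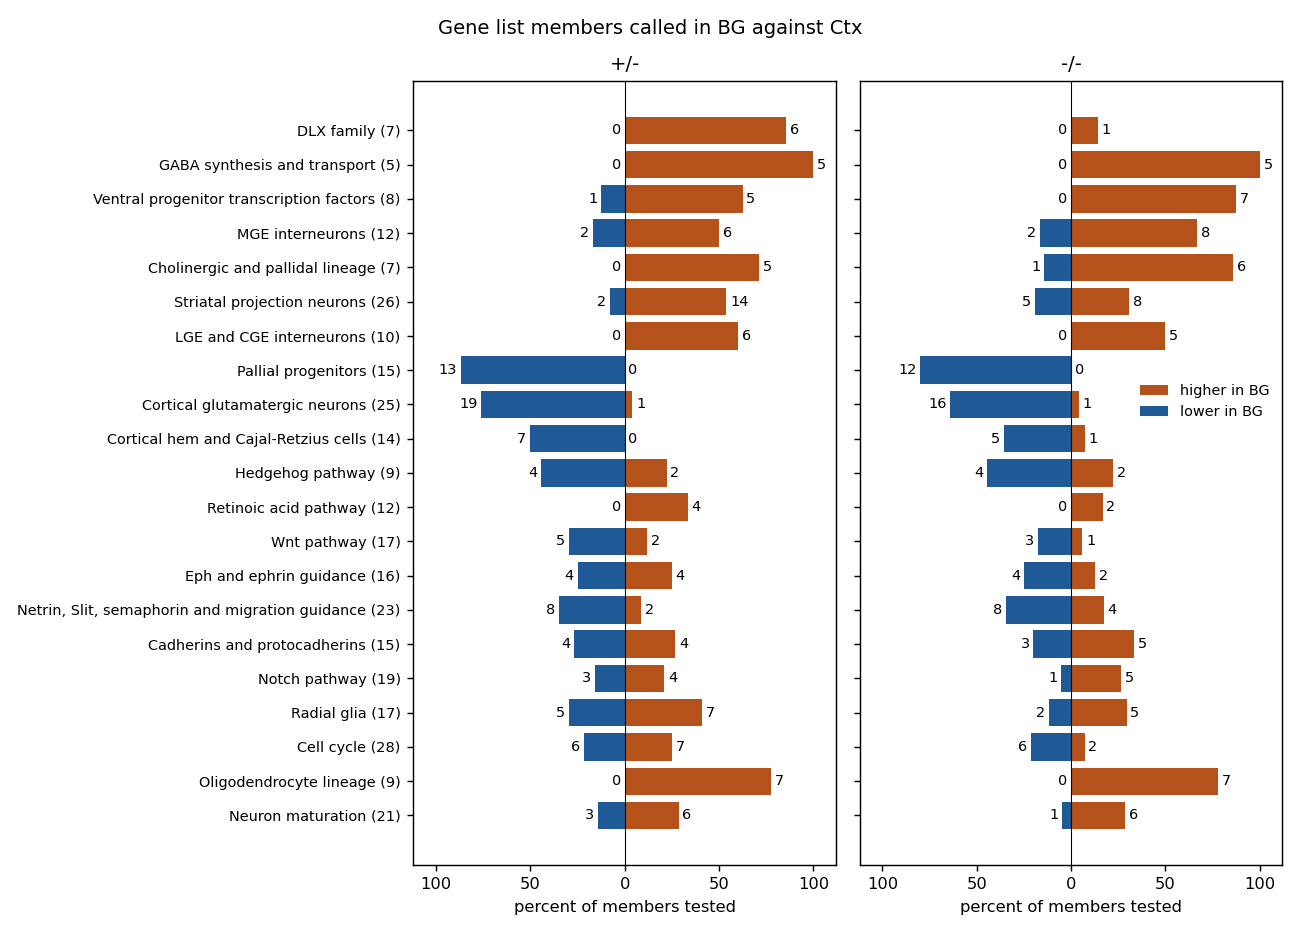
The share of tested members called higher (right, orange) or lower (left, blue) in BG is plotted in percent for 21 gene lists in +/- (left panel) and -/- (right panel), with counts beside the bars and the number tested in brackets. The DLX list has 6 higher in +/- and 1 in -/-, the striatal list 14 higher and 2 lower in +/- and 8 and 5 in -/-, and the GABA, pallial and cortical lists keep their side.

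Of the 46 genes whose regional difference differed between genotypes, 37 (0.272%) had a more positive and 9 (0.0660%) a more negative difference in -/-. Besides those above, Rbms3, an RNA-binding protein, read 357 and 408 in BG -/- and 62.6 and 66.8 in Ctx -/- and gave 2.30 in -/- and 0.57 in +/- (1.73 ± 0.19 between genotypes, limma, adjusted p = 0.0318). Its other 3 probe sets had the same sign between genotypes and were not called. Egr3, an immediate early zinc finger factor, read 52.4 and 57.5 in BG -/- and 5.60 and 12.96 in Ctx -/-, and 146 and 153 in BG +/-, and gave 1.503 in -/- and 3.18 in +/- (-1.68 ± 0.24 between genotypes), while its other probe set gave -0.13 in -/- and was not called. Fancm, a DNA repair helicase, gave 0.88 in -/- and -1.23 in +/-, but its other 2 probe sets gave 0.08 and 0.04 between genotypes.

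Sex-linked genes moved with genotype: Xist read 2339.9 and 2519 in BG -/- and 2457 and 2363 in Ctx -/-, but 34.2 and 42.4 in BG +/- and 62.6 and 67.5 in Ctx +/-, and the Y-linked Eif2s3y read 241 and 261 in BG +/- and 1.20 to 6.46 in the -/- arrays. Genotype and this difference cannot be told apart. Within -/- the regions did not differ in Xist beyond its error (0.01 ± 0.13). Within +/- Xist was lower in BG (-0.58 ± 0.13, limma, adjusted p = 0.0209). It was among 3 of the 4 sex-linked genes tested that were called lower in BG +/- than in Ctx +/-.

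Markers of other tissue that were called were higher in BG -/-, except that the meningeal list had lower members as well. Of all genes 11.4% were higher and 7.25% lower in BG -/-, and the endothelial and microglial counts are not far from these shares. The summed signal of 6 red blood cell genes was 3185 and 3329 in BG -/- against 1486 and 1700 in Ctx -/-, with 3 of 6 higher, led by Hbb-y at 2908 and 2793 in BG -/- and 1231 and 1415 in Ctx -/- (1.10 ± 0.13). Endothelial and mural genes summed to 1319 to 1373 against 918 to 988 (2 of 12 higher, Pdgfrb by 1.38 and Acta2 by 0.78), and microglial genes to 1123 to 1149 against 740.1 to 843.0 (1 of 11, Tyrobp by 0.81). Meningeal genes summed to 685 to 773 against 709 to 809, with 3 of 9 higher, among them Col1a2 (1.21) and Foxc1 (0.88), and 3 lower, among them Dcn (-1.46). Genes of diencephalon and hypothalamus summed to 1041 to 1110.0 against 372 to 376, with 4 of 9 higher: Otp at 439.9 and 493 in BG -/- and 22.7 and 32.0 in Ctx -/-, Barhl2 (1.97), Gbx2 and Irx3 (1.63). This sum was 670.2 to 694 in BG +/-.

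Adrenal medulla genes summed to 808 to 841 against 621 to 656, with Chgb alone higher (0.59). Of immediate early and stress genes, 3 of 8 were higher, Hspa1b (1.78), Hspa1a (1.05) and Egr1 (0.93), and Ier2 was lower (-1.39). With any 1 -/- array left out, the calls of Hbb-bh1, Alas2, Acta2, Chgb and Egr1 were lost. So were those of Tyrobp and Col1a2 without either BG -/- array, of Irx3 without either BG -/- array or Ctx -/- replicate 3, of Foxc1 without BG -/- replicate 2 or either Ctx -/- array, and of Dcn without BG -/- replicate 2 or Ctx -/- replicate 2. The part of other tissue in the regional differences was not tested.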

How the data were processed

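RNA was measured on 8 arrays of mouse basal ganglia or cortex, 2 a group, grouped by region and genotype from the sample titles. The authors deposited intensity values on a linear scale, 1 signal for each of 45101 probe sets, per the file headers. The summarising software is not given in the sources used here. Every array had a mean of 150.0 with 2% trimmed at each end, the mark of a common scaling target. Between 24.6% and 34.1% of signals of an array were below 16. The number of arrays limits the precision.

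No further normalization was applied, and tests used log2(signal + 16). After 64 control probe sets, the lowest 30% by mean were left out, which kept 31526. limma 3.58.1 under R 4.3.3 fitted 4 group means (lmFit, eBayes; 4 residual and 2.76 prior degrees of freedom). The contrasts were BG against Ctx in -/-, the same in +/-, and their difference, tested two-sided with Benjamini-Hochberg adjustment over the probe sets kept and a threshold of 0.05. The platform annotation gave 1 symbol for 34945 probe sets, several for 932 and none for 9160. A gene is represented by its brightest probe set that names it alone (13627 genes).

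The 30 lists hold 442 genes, of which 373 were tested, 44 were below the filter and 25 had no single-gene probe set. Members and lists were chosen with earlier results of these data known. No set test was run. Named are 124 genes: Dlx1, Dlx2, Dlx5 and Dlx6, the 15 largest called differences in each direction in -/- with arrays apart, up to 4 called members of each list by p (2 where none was called), list members with a called difference between genotypes, and the 10 largest such differences in each direction. Clone names, 1 and 3 of those ranked, were passed over. Further list members are given after their values were seen, to account for the counts. RefSeq promoters (GRCm38.p6) matched 91 of the named genes. The fit was tested on simulated data. Alternatives were the offset, filter, scaling, replicate block, variance trend, probe set choice, samples in the fit and each array left out.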

Additional observations from a re-analysis of the deposited data

Results flagged for a closer look

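The regional difference of 22 named genes differed between -/- and +/- by limma's test of the difference itself at an adjusted p under 0.05. Values are the difference in -/- minus that in +/- on the log2 scale, and the report gives both parts with their arrays. More positive in -/- were the interneuron and GABA genes Gad1 (3.14), Lhx6 (2.74), Sst (2.48), Nxph1 (1.88), Npy (1.71) and Gad2 (1.40). So were Ttr (8.98), Otx2 (2.77) and Kcne2 (2.56) of the choroid plexus list, Fancm (2.11), Ebf3 (2.01), Rbms3 (1.73) and Arpp21 (1.57), the last with a smaller deficit of BG in -/-.

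More negative in -/- were the DLX genes Dlx1as (-2.80), Dlx1 (-2.56), Dlx6os1 (-2.56) and Dlx2 (-2.28). The striatal and retinoic acid genes Foxp1 (-2.13), Rarb (-2.04) and Crabp1 (-1.73) followed, with Tiam2 (-1.84) and Egr3 (-1.68). Of 29 further probe sets for 12 of these genes, 27 had the same sign and 7 were called.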

How the results depend on the processing

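Calls for the 7 counts moved as follows. The count of genes whose regional difference differed between genotypes, 46 in the report, was 1 with an offset of 1, 302 with an offset of 64, 5 without a filter, 318 with the lowest 50% left out, 17 with each array centred on its median, 728 with an intensity trend and 23 with the mean of all probe sets of a gene. It was 34 with quantile normalization, and 1 to 2 with any array left out. With the replicate number as a block it was 1, with 2171 calls in -/- and 1317 persisting genes. Same-numbered arrays did not deviate together (correlations of deviations -0.03 to 0.02), so the numbers are not shown to pair the arrays. Calls in -/- were 3820 with an intensity trend, of which 1736 lower. With median centring 934 were higher and 2543 lower. With 1 array left out, calls in -/- were 926 to 3034, higher ones 595 to 1931, lower ones 305 to 1103, calls in +/- 1653 to 3111, and persisting genes 731 to 1747. An arm with 1 array was assumed to vary like the others.

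Of the 115 named genes called in -/-, 106 to 115 kept the call under the other settings that tested all of them, and 92 to 101 with 1 -/- array left out. Signs turned for Kcne2 (-0.29 to 0.15 with 1 array left out, 0.11 without BG -/- replicate 2 and 0.15 without Ctx -/- replicate 2) and Dlx2 (-0.19 to 0.12, the latter without Ctx -/- replicate 2), neither called in -/-. The cause of these moves was not tested. With 2 arrays a group small differences were not detectable, and those of low signals are understated by the offset.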
